A study of Mus musculus with 6 samples.

Results

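The genes described here encode the transcription factors Jun, Junb, Jund, Fos, Fosb, Fosl2, Atf3, Egr1 and Egr3, together with Ier2, a nuclear regulator induced with them. They were chosen by gene name, 10 of the 55359 annotated genes in the tables. The choice was made with the comparison of S156A and WT libraries in view, in which Jun had been called as higher in S156A, so the genotype differences of the 10 genes are given as a description. RNA was sequenced from the whole brains of late-gestation embryos (E18.5), in 3 wild-type (WT) libraries and 3 libraries from PME-1 S156A knock-in embryos, each from 3 brains pooled in 1 tube. PME-1 is the methylesterase that removes a methyl group from the catalytic subunit of the phosphatase PP2A, and in S156A a serine of its active site is replaced by alanine. The labels state neither strain nor zygosity nor sex. A test over these libraries measures the spread between pools, not between single embryos.

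Jun and Fos proteins pair through leucine zippers to form AP-1, a dimeric factor that binds short palindromic DNA sites. Jun proteins can pair with each other, whereas Fos proteins need a partner such as Jun. Most of these genes are immediate early genes: their transcription starts within minutes of a stimulus, from kinases of the ERK, JNK and cAMP routes, and needs no new protein. In the brain Fos and the Egr genes, which encode zinc-finger factors, are widely used as marks of recent neuronal activity. Jun and Atf3 are known for their induction in injured neurons, and Jund is the member of the family with steady expression.

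The upstream sequences of 3 genes are shown because their RNAs followed 3 patterns. Jun separated the genotypes, and Fos was high only in the library of each genotype richest in muscle RNA. Atf3 was high in S156A and in the muscle-rich WT library. Each run is the 250 bases before the RefSeq start site, 5′ to 3′ on the gene's strand, in GRCm38.p6. Jun lies at chr4:95052223-95052472 on the minus strand, Fos at chr12:85473640-85473889 on the plus strand and Atf3 at chr1:191183334-191183583 on the minus strand. Capitals mark the sites TTACCTCA and TGACATCA in Jun, the CRE core TGACG and the TATA box TATAAA in Fos, and the CRE core, read on the other strand, in Atf3.
Jun: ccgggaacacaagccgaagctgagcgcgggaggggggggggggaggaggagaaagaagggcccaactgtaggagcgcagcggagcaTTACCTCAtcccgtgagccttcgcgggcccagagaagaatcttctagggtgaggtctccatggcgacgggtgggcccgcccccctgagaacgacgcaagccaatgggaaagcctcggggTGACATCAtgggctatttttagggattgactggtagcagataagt
Fos: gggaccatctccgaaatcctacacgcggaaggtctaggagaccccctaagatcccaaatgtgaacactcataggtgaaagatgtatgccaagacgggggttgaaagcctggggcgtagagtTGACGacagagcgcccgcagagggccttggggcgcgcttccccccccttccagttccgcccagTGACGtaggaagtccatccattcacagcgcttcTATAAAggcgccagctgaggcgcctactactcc
Atf3: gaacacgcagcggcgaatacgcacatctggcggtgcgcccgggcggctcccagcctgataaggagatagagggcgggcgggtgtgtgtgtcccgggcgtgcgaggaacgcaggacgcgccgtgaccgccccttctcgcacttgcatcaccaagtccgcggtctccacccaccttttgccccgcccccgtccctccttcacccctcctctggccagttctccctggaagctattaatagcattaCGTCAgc

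Counting the base before the start as -1, the Jun sites lie at -164 to -157 and -45 to -38. These 2 letter strings are known from earlier work as the sites through which Jun and ATF proteins act on the Jun gene. Both strands were searched in 32851 RefSeq promoter windows, and 7 of the 10 genes had a window. TGACATCA occurred in 2.93% and TTACCTCA in 0.728% of all windows, and among the 7 genes only in Jun. The CRE core TGACG, which is also part of the full CRE TGACGTCA, occurred in 4 of the 7 (Fos, Fosb, Junb and Atf3), against 17.8% of all windows. In Fos it lies at -129 to -125 and -66 to -62, and in Atf3 at -7 to -3. TATAAA was found in Fos, at -33 to -28, against 12.4% of windows. SP1 letters (GGGCGG, 32.7% of windows) were found in 5 of the 7. The full CRE, the AP-1 letters TGANTCA, the EGR letters GCGTGGGCG and the CArG box, the SRF site, were in none of the 7 windows, and in 1.55%, 6.75%, 0.536% and 1.47% of all windows. Only the 250 bases before the start were searched, and Egr1, Egr3 and Ier2 had no window. Sites farther upstream or elsewhere in these genes were therefore not looked for. A match is a description of letters and not evidence of binding.

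Depth was estimated at 3.15 to 4.14 aligned gigabases per library. WT replicate 3 and S156A replicate 1 stood apart from the other 4 libraries by RNA of skeletal muscle. The summed level of 18 skeletal muscle genes was 27.7, 1134 and 8947 TPM (transcript abundance scaled to gene length and library) in WT replicates 1 to 3. It was 9189, 83.8 and 76.4 TPM in S156A replicates 1 to 3. WT replicate 2 lay between, well above the 3 lowest libraries. Connective tissue genes (9 of 9) and skin genes (9 of 9) were also highest of their genotype in both of these libraries, at 2392 and 2888 TPM and at 202 and 317 TPM in sum. The Y-linked genes summed to 0.34 TPM in S156A replicate 1 and to between 28.7 and 65.0 TPM in the other libraries, so the sex mix of the pools differed. Neuronal markers were expressed in every library, with 11 genes summing to between 2989 and 5708 TPM. WT replicate 3 and S156A replicate 1 are called the muscle-rich libraries, and log2 differences or means without them are given for each tested gene.

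Jun was higher in every S156A library than in every WT library, and it was the gene of the 10 that passed the test across all genes. It lies on chromosome 4, minus strand, 94937271 to 94940459 in the files' coordinates (ENSMUSG00000052684.5). Its level was 46.4, 43.4 and 52.9 TPM in the WT libraries, and 97.3, 110.6 and 111.4 TPM in the S156A libraries, given here and in what follows in the order of replicates 1 to 3. The WT mean was 47.6 ± 4.86 TPM and the S156A mean 106 ± 7.89 TPM (SD, n = 3 each), a 2.24-fold difference and 1.15 on the log2(TPM + 1) scale (SE 0.12). The gap between the groups was far wider than the spread within either of them. Jun was 1 of the 30 genes called among the 18893 tested by limma at a Benjamini-Hochberg adjusted p under 0.05, which is 0.159% of the genes tested (0.0847% higher and 0.0741% lower in S156A). This adjusted p, 0.038, is the value that drew attention to Jun and is no independent support for it, and over 22 other settings it ran from 0.011 to 0.257, above the threshold in 11. With 1 library left out it was under 0.05 only without WT replicate 3 (0.044) and between 0.074 and 0.226 without any of the other 5. The difference itself ran from 1.05 to 1.29 over those settings. Between the 2 muscle-rich libraries Jun was 1.84-fold higher in S156A, and between the other 4 libraries, with means of 44.9 and 111.0 TPM, it was 2.47-fold higher.

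Jund, the most abundant of the 10 genes, also had S156A libraries above all WT libraries, by a smaller factor. It is annotated on chromosome 8, plus strand, 71151599 to 71153265 (ENSMUSG00000071076.9). Jund was at WT levels of 366, 367 and 441 TPM and S156A levels of 497, 494 and 628 TPM. The means were 391 ± 42.6 and 540 ± 76.7 TPM (SD, n = 3 each), with a log2 difference of 0.46 (SE 0.14). S156A replicate 3 stood well above the other 2 libraries of its group. Without WT replicate 3 and S156A replicate 1 the means were 367 and 561 TPM.

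Junb, whose protein is a weaker activator than Jun, did not separate the genotypes. It was at 7.00, 7.98 and 11.1 TPM in the WT libraries, compared with 13.2, 10.8 and 9.23 TPM in S156A. The highest library of each genotype was the muscle-rich one, and the log2 difference was 0.33 (SE 0.23), or 0.38 without these 2. It was 0.20 without WT replicate 1, 0.21 without S156A replicate 1 and 0.50 without WT replicate 3. Junb overlaps Prdx2, a gene on the opposite strand with a mean of 642 TPM, so its value is uncertain: the library kit keeps strand, but no source used here gives the strand setting of the authors' counting. Jun and Jund overlap Junos (0.12 TPM) and Gm11175 (4.13 TPM) on the opposite strand.

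**Figure D1:**
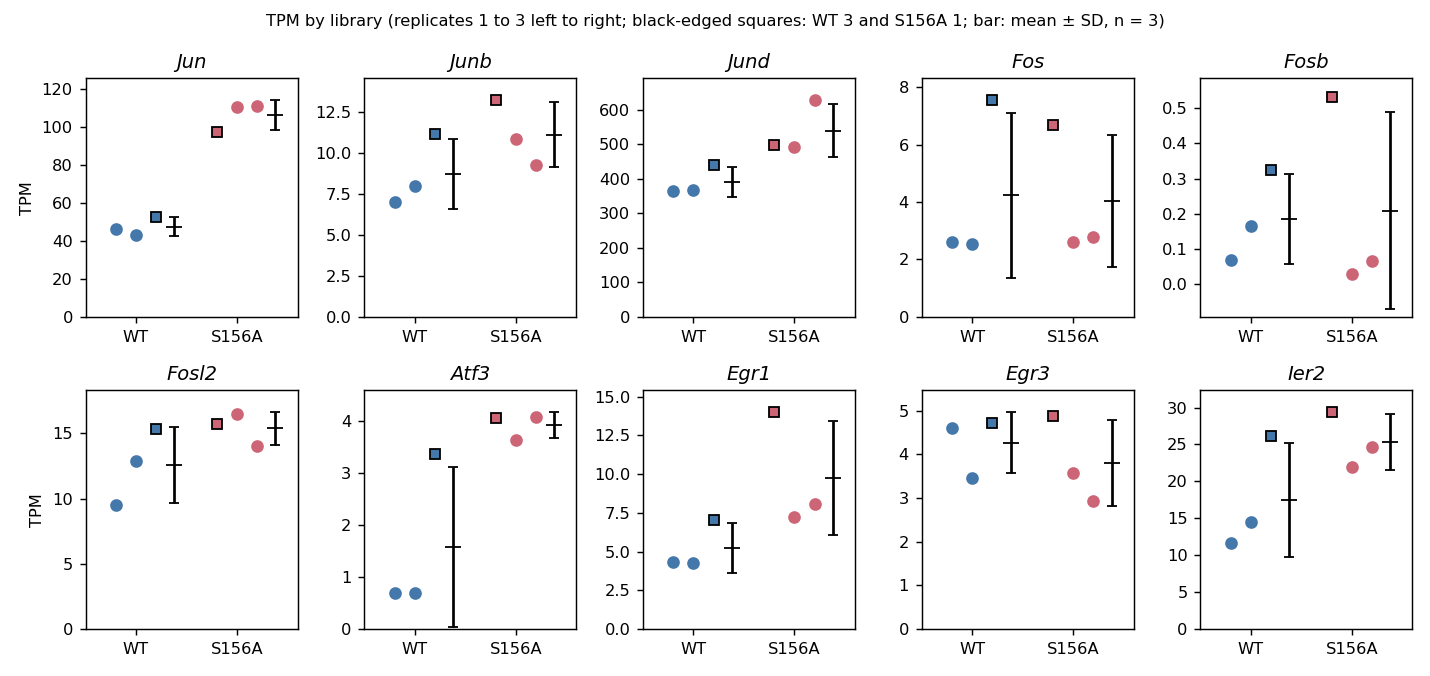
TPM (linear axis, one scale per gene) of the 10 genes in 3 WT and 3 S156A libraries. Squares with a black edge are the muscle-rich libraries WT replicate 3 and S156A replicate 1, and bars give the mean and SD of 3 libraries (for Fosb the bar reaches below 0). Jun lies between 43.4 and 52.9 TPM in WT and between 97.3 and 111.4 TPM in S156A, while Fos is at 7.55 and 6.68 TPM in the 2 squares and below 3 TPM elsewhere.

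Fos, the classical activity gene and the usual partner of Jun, did not separate the genotypes. It is annotated on chromosome 12, plus strand, 85520664 to 85524047 (ENSMUSG00000021250.14). It was at 2.63, 2.53 and 7.55 TPM (WT) against 6.68, 2.63 and 2.77 TPM (S156A). Only the muscle-rich libraries were high, and they were high in both genotypes: the ratio to the mean of the other 2 libraries was 2.93 in WT and 2.48 in S156A. The log2 difference between genotypes was -0.02 (SE 0.45), and over 21 settings it ran from -0.37 (without S156A replicate 1) to 0.40 (without WT replicate 3), positive in 7 and negative in 14. Without the muscle-rich libraries the means of Fos were 2.58 and 2.70 TPM. Fos was no higher in WT replicate 2 than in WT replicate 1, although their summed muscle levels were 1134 and 27.7 TPM.

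Fosb was nearly undetected. It was at WT levels of 0.069, 0.164 and 0.323 TPM and S156A levels of 0.532, 0.029 and 0.064 TPM, and was the 1 gene of the 10 below the mean TPM of 1 needed for testing. Its mean read depth per base lay between 0.028 and 0.525, too low for any comparison between genotypes.

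Fosl2, encoding Fra-2, supplied most of the Fos-family RNA, from 66.1% to 86.1% of the summed TPM of Fos, Fosb and Fosl2 in a library. It was at 9.52, 12.9 and 15.3 TPM in the WT libraries, compared with 15.7, 16.5 and 14.0 TPM in S156A, with a log2 difference of 0.29 (SE 0.20). The groups overlapped, since WT replicate 3 exceeded S156A replicate 3. The difference was 0.42 without the muscle-rich libraries, 0.12 without WT replicate 1 and 0.44 without WT replicate 3. Without all 3 libraries whose Acta1, the actin of skeletal muscle, was over 100 TPM, which leaves 1 WT library (assumed to vary like the others), it was 0.62.

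Atf3, a stress-induced factor that pairs with Jun, had higher values in S156A and also in the muscle-rich WT library. It is annotated on chromosome 1, minus strand, 190902493 to 190950236 (ENSMUSG00000026628.14). It was at 0.688 and 0.691 TPM in WT replicates 1 and 2 but at 3.37 TPM in WT replicate 3, and its S156A levels were 4.06, 3.63 and 4.08 TPM. The S156A libraries lay close together and above all WT libraries. The log2 difference was 1.09 (SE 0.41), and 1.54 without WT replicate 3. Between the 4 libraries other than the muscle-rich ones the means were 0.690 and 3.86 TPM, a 5.59-fold difference, whereas between the 2 muscle-rich libraries it was 1.21-fold. Atf3 is low in all libraries, with a read depth per base of 0.691 to 5.41, and its log2 difference ran from 0.46 to 1.64 with the pseudocount at 5 and 0.1.

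Egr1, the zinc-finger factor induced by growth factors and synaptic activity, was at 4.33, 4.26 and 7.06 TPM (WT) against 14.0, 7.24 and 8.07 TPM (S156A). S156A libraries exceeded WT libraries, but S156A replicate 2 only narrowly exceeded WT replicate 3. The log2 difference was 0.77 (SE 0.30), 0.71 without the muscle-rich libraries and 0.50 without S156A replicate 1. In both genotypes the muscle-rich library was the highest, 1.64-fold above the mean of the others in WT and 1.83-fold in S156A. Within the muscle-rich pair the ratio of S156A to WT was 1.98, and among the other 4 libraries 1.78.

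Egr3, a related factor of neurons and muscle spindles, had overlapping groups. It was at WT levels of 4.61, 3.46 and 4.73 TPM and S156A levels of 4.87, 3.57 and 2.94 TPM, with a log2 difference of -0.15 (SE 0.25). It was -0.24 without the muscle-rich libraries, and with 1 library left out it ran from -0.30 (without S156A replicate 1) to -0.01 (without S156A replicate 3). It was also over 1.5 times nearer to or farther from 0 without WT replicate 1 (-0.10), WT replicate 2 (-0.26) or WT replicate 3 (-0.08). Ier2 was at 11.7, 14.5 and 26.2 TPM in the WT libraries, compared with 29.4, 21.9 and 24.6 TPM in S156A. WT replicate 3 fell among the S156A libraries, so the groups overlapped, and the log2 difference was 0.58 (SE 0.29). It was 0.79 without the muscle-rich libraries, 0.90 without WT replicate 3 and 0.35 without WT replicate 1.

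**Figure D2:**
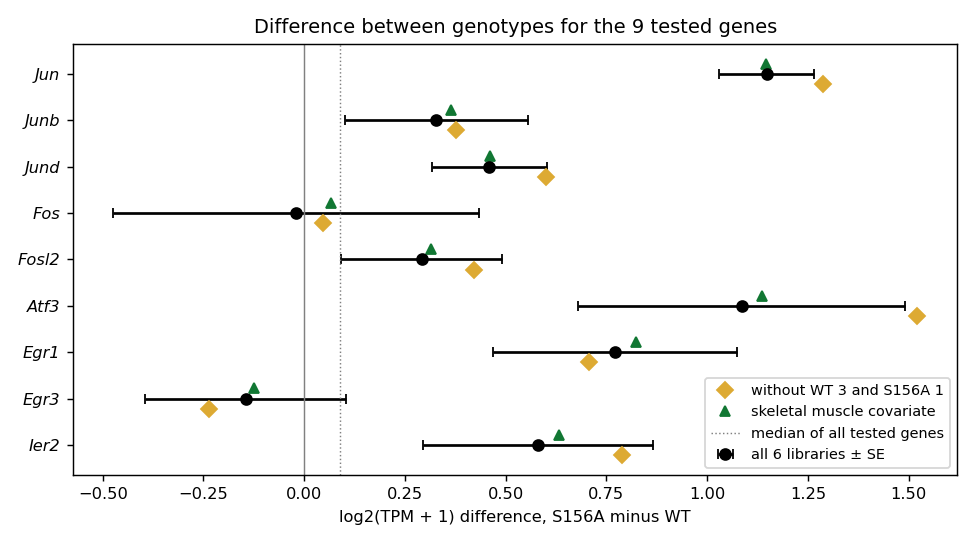
Difference in log2(TPM + 1), S156A minus WT, for the 9 tested genes. Circles with bars are the fit to all 6 libraries with its SE, diamonds the fit without WT replicate 3 and S156A replicate 1, triangles the fit with the mean log2 level of the muscle genes as a covariate, and the dotted line is the median of all tested genes, 0.09. Jun is at 1.15, 1.29 and 1.15 in the 3 fits, and Fos at -0.02, 0.05 and 0.07.

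Among the 9 tested genes 1, Jun, was called, and 8 were not. For 4 of the 9 (Jun, Jund, Atf3 and Egr1) all S156A values lay above all WT values, against 13.7% of all tested genes, and for 0 of the 9 all lay below, against 7.05%. The median log2 difference was 0.46, beside 0.09 over all tested genes. As the genes were chosen with this comparison in view, these counts describe them only. In WT the order of the means was Jund, Jun, Ier2 (17.5 TPM), Fosl2 (12.6), Junb (8.70), Egr1 (5.22), Egr3 (4.26), Fos (4.24), Atf3 (1.58) and Fosb (0.185). From Ier2 to Atf3 each gene and the next differed by less than the sum of their SDs.

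All 10 genes were highest of WT in WT replicate 3, but only 6 were highest of S156A in S156A replicate 1. The share of all tested genes with either pattern alone was not counted, so these counts describe the 10 genes only. A total of 6, Junb, Fos, Fosb, Egr1, Egr3 and Ier2, were highest of their genotype in both WT replicate 3 and S156A replicate 1. Of these 6, 5 were tested, and 19.8% of all tested genes had this pattern. Jun and Jund were instead lower in S156A replicate 1 than the mean of the other S156A libraries, with ratios of 0.877 and 0.887, and only slightly higher in WT replicate 3, with ratios of 1.18 and 1.20. For Fosl2 and Atf3 the ratio was 1.37 and 4.88 in WT but 1.03 and 1.05 in S156A. Across the 6 libraries, Pearson's r of log2(TPM + 1) with the log2 summed muscle level was 0.86 for Fos and 0.91 for Fosb, and -0.13 for Jun. These r values are a description of 6 libraries that also differ in genotype and depth. Connective tissue and skin markers were high in the same 2 libraries, and the part of any of these tissues in the levels of Fos, Fosb or Egr1 was not tested.

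**Figure D3:**
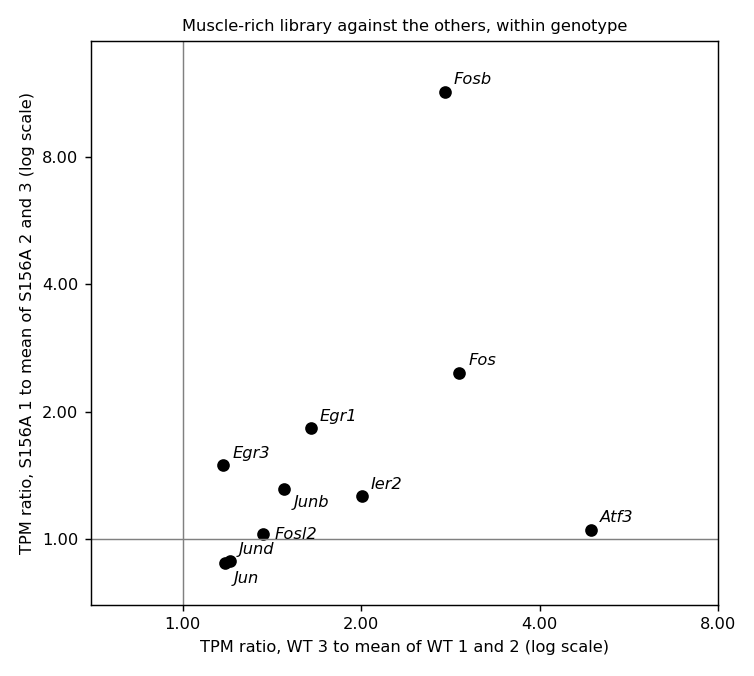
Ratio of TPM in the muscle-rich library to the mean of the other 2 libraries, in WT (x axis) and S156A (y axis), both on log scales, for the 10 genes. Fos lies at 2.93 and 2.48, Jun at 1.18 and 0.877, and Atf3 is high on the WT axis only, at 4.88 against 1.05. The y value of Fosb, 11.4, rests on levels below 0.1 TPM.

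Within the Jun genes the balance differed between genotypes. Jun made up 11.1%, 10.4% and 10.5% of the summed TPM of Jun, Junb and Jund in WT replicates 1 to 3 and 16.0%, 18.0% and 14.9% in S156A replicates 1 to 3. The means were 10.6 ± 0.37% and 16.3 ± 1.58% (SD, n = 3 each), with no overlap. A share within a library does not depend on library scaling. Jun was chosen for its call in this same comparison, so its higher share restates that difference and is a description only. Jund held 87.4 ± 0.25% in WT and 82.0 ± 1.83% in S156A, and Junb 1.93 ± 0.27% and 1.72 ± 0.47%. The summed TPM of the 3 genes was between 419 and 505 in WT and between 608 and 749 in S156A.

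**Figure D4:**
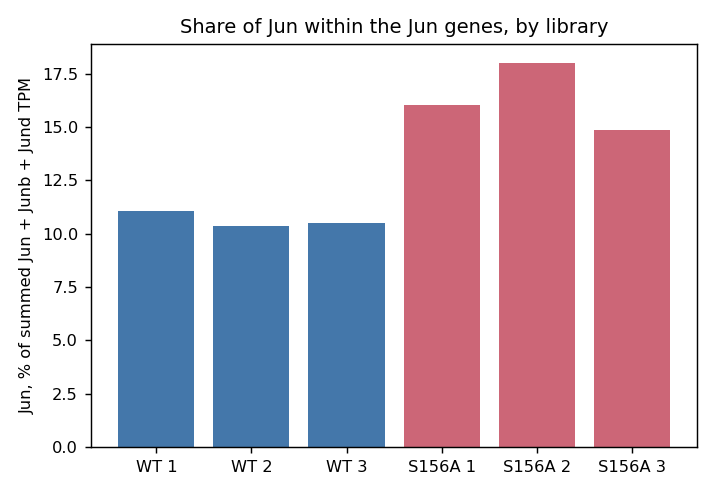
Jun TPM as a percentage of the summed TPM of Jun, Junb and Jund, one bar per library, from 0. WT libraries lie between 10.4% and 11.1%, S156A libraries between 14.9% and 18.0%.

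Several cell-type markers differed between the genotypes in the same direction as Jun, so its level is set beside them. All 14 microglial markers had a higher mean log2 level in S156A, and 6 of them were called, against 0.0847% of all tested genes called higher. For 12 of the 14 all S156A values lay above all WT values, against 13.7% of all tested genes. P2ry12 and Tmem119, named after their values were seen, had overlapping groups, with log2 differences of 0.19 and 0.78. Tmem119 was highest in the muscle-rich libraries, at 28.3 and 41.6 TPM. The 14 markers summed to 180, 203 and 300 TPM in WT replicates 1 to 3 and 630, 580 and 689 TPM in S156A. None of the 14 was listed at 0 in any library. Over the 6 libraries, Pearson's r with the log2 summed microglial level was 0.97 for Jun, 0.93 for Jund, 0.91 for Atf3, 0.83 for Egr1 and 0.82 for Ier2, against 0.19 for Fos. The microglial sum itself separates the genotypes, so a gene that does so tends to a high r with it, and these values are a description only. Astrocyte markers summed to between 2039 and 2502 TPM in WT and between 2843 and 4216 TPM in S156A (9 of 12 higher, 1 called). The largest part of that gap lay in Apoe, at 498, 584 and 616 TPM in WT and 1194, 1228 and 1862 TPM in S156A. For 6 of the 12 genes all S156A values lay above all WT values, and for 1 below, against 13.7% and 7.05% of all tested genes. Oligodendrocyte markers summed to between 268 and 305 TPM in WT and between 344 and 449 TPM in S156A (8 of 11 higher, 1 called). Choroid plexus markers summed to 1531, 1248 and 1117 TPM in WT and to 2326, 2446 and 3455 TPM in S156A (6 of 6 tested higher, 0 called, 4 at an unadjusted p under 0.05). Erythroid markers were higher for 5 of 5 tested genes, 0 called and 1 at an unadjusted p under 0.05, with overlapping groups for each. Endothelial markers were higher for 8 of 10 genes, 0 called and 2 at an unadjusted p under 0.05. Neuronal markers were lower in S156A for 10 of 11 genes, of which 2 were called. Of all tested genes 0.0847% were called higher and 0.0741% lower. At an unadjusted p under 0.05 these shares were 8.41% and 5.5%. The part of these cell types in the difference of Jun was not tested. In RNA from bulk brain tissue, more cells of a type and more RNA per cell cannot be told apart.

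By the rule for likeness, the 5 genes whose log2(TPM + 1) followed Jun most closely over the 6 libraries, among 10355 genes averaging 10 TPM or more, were Ly86, Eloa, Ist1, Pdcd4 and Cx3cr1, with r from 0.993 to 0.997. Ly86 and Cx3cr1 are expressed by microglia and other myeloid cells. Ly86 was at 4.59, 4.70 and 5.75 TPM (WT) against 15.6, 19.9 and 20.6 TPM (S156A). Genes picked for their likeness to Jun tend to share its order of libraries by that choice. As Jun separates the genotypes, a gene that does so tends to a high r with it, and these values are a description only. The 5 closest to Fos were Igfbp3, Eif4ebp1, Emp1, S100a10 and Pnpla2, with r from 0.992 to 0.996. Igfbp3, an insulin-like growth factor binding protein, was at WT levels of 34.7, 37.5 and 100.3 TPM and S156A levels of 88.3, 37.7 and 36.7 TPM. As the r of Jun with Fos was 0.02, no gene could have such a high r with both.

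Other immediate early genes had values in both directions. Of 36 listed genes 34 were tested, and limma called 0 of them. At an unadjusted p under 0.05 there were 9 higher and 4 lower in S156A, beside 8.41% and 5.5% of all tested genes, and the median log2 difference was 0.17. Btg2, an antiproliferative gene, was at 13.2, 9.73 and 17.6 TPM in the WT libraries, compared with 28.3, 24.4 and 27.9 TPM in S156A (log2 difference 0.97, limma adjusted p = 0.14). In the other direction, the kinase gene Plk3 was at 23.4, 21.9 and 18.47 TPM (WT) against 13.6, 11.9 and 12.0 TPM (S156A), with a log2 difference of -0.72 (limma adjusted p = 0.13). The zinc-finger gene Klf6 had a log2 difference of -0.46, again with no overlap of the groups. Among genes of neuronal activity, chosen after their values were seen, Arc was at WT levels of 2.84, 3.20 and 2.07 TPM and S156A levels of 2.75, 3.20 and 2.93 TPM. The nuclear receptor gene Nr4a1, also chosen so, was at 15.4, 14.7 and 18.7 TPM in the WT libraries, compared with 12.9, 8.79 and 9.30 TPM in S156A, opposite in direction to Jun. Of others chosen so, Bdnf, Npas4 and Nr4a2 differed by -1.20, -0.55 and -0.12, and Nr4a3 and Homer1 by 0.35 and 0.26. Of these only Bdnf had groups that did not overlap. In this list 18 of 36 genes, counting those not tested, were highest of their genotype in both muscle-rich libraries. Of all tested genes 19.8% had this pattern.

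Among the remaining AP-1 genes, of 7 genes 5 were tested and 0 called, with 1, Atf7, at an unadjusted p under 0.05 (higher, as for 8.41% of all tested genes). Atf7, which encodes a Jun partner, was at 10.8, 10.7 and 11.3 TPM (WT) against 51.0, 18.4 and 13.6 TPM (S156A), so S156A replicate 1 alone supplied most of its difference. Of the untested pair, named after their values were seen, Fosl1 was at most 0.688 TPM and Batf2 was listed at 0 in all libraries.

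The kinase routes that act on these genes had medians close to 0, beside 0.09 over all tested genes. Their counts at an unadjusted p under 0.05 stand beside 8.41% higher and 5.5% lower of all tested genes. In the JNK route, whose kinases phosphorylate Jun, 20 genes were tested and 0 called, with 0 higher and 3 lower at an unadjusted p under 0.05 and a median of 0.03. Mapk8ip1, a scaffold of that route, was at WT levels of 310, 307 and 247 TPM and S156A levels of 187, 232 and 232 TPM (log2 difference -0.41, limma adjusted p = 0.29). The ERK and SRF list had 0 of 17 called and 1 gene, Elk4, an SRF partner, at an unadjusted p under 0.05 (log2 difference 0.54), with a median of 0.01. The CREB list had 0 of 15 called, 1 higher and 3 lower at an unadjusted p under 0.05, and a median of -0.05. Camk4, a calcium-dependent kinase that phosphorylates CREB, was at 17.7, 17.8 and 16.7 TPM in the WT libraries, compared with 8.65, 9.89 and 8.29 TPM in S156A, a log2 difference of -0.89 (limma adjusted p = 0.080). Camk2b, a kinase subunit of synapses, and Crtc1, a CREB coactivator, differed by -0.64 and -0.31, each with S156A below WT in all libraries. RNA levels of kinases say nothing about their activity.

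The MAP kinase phosphatases had 3 genes with higher values at an unadjusted p under 0.05 and 0 lower, of 10 tested, with 0 called and a median of 0.24, beside 8.41% higher and 5.5% lower of all tested genes. Dusp16, a phosphatase that acts on JNK, was at 5.25, 6.76 and 6.91 TPM (WT) against 11.7, 14.8 and 13.2 TPM (S156A), with a log2 difference of 0.97 (limma adjusted p = 0.10). Dusp8, which also acts on JNK, was at WT levels of 109, 120 and 97.6 TPM and S156A levels of 129, 165 and 157 TPM (log2 difference 0.46), and Dusp1 differed by 0.41. For each of these 3 genes S156A lay above WT in all libraries, as for 13.7% of all tested genes. Genes of Jun stability and cofactors had 0 of 12 called, 1 higher and 1 lower at an unadjusted p under 0.05, and a median of 0.10. The one above, Nfatc3, a calcium-regulated factor that can bind DNA with AP-1, was at 10.2, 6.27 and 2.36 TPM in the WT libraries, compared with 14.1, 11.5 and 11.7 TPM in S156A (log2 difference 1.04).

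Genes linked to Jun in injured neurons were found in both directions. Of 19 tested gene identifiers, Ddit3 being listed under 2, 15 were higher and 4 lower, of which 5 and 2 had an unadjusted p under 0.05, beside 8.41% higher and 5.5% lower of all tested genes. None was called (0 of 19), and the median was 0.43, beside 0.09 over all tested genes. Hrk, a proapoptotic gene induced by Jun in neurons, was at 18.8, 16.8 and 15.5 TPM (WT) against 25.1, 34.7 and 33.5 TPM (S156A), with a log2 difference of 0.82 (limma adjusted p = 0.11). Sox11 and the first Ddit3 entry differed by 0.56 and 0.50. Gap43, the growth-cone protein gene, and Gal, the neuropeptide galanin, both named after their values were seen, differed by -0.68 and -1.21. Genes of heat shock and handling stress had 0 of 9 called and 1 lower at an unadjusted p under 0.05, Hspa1a, with a median of -0.03.

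**Figure D5:**
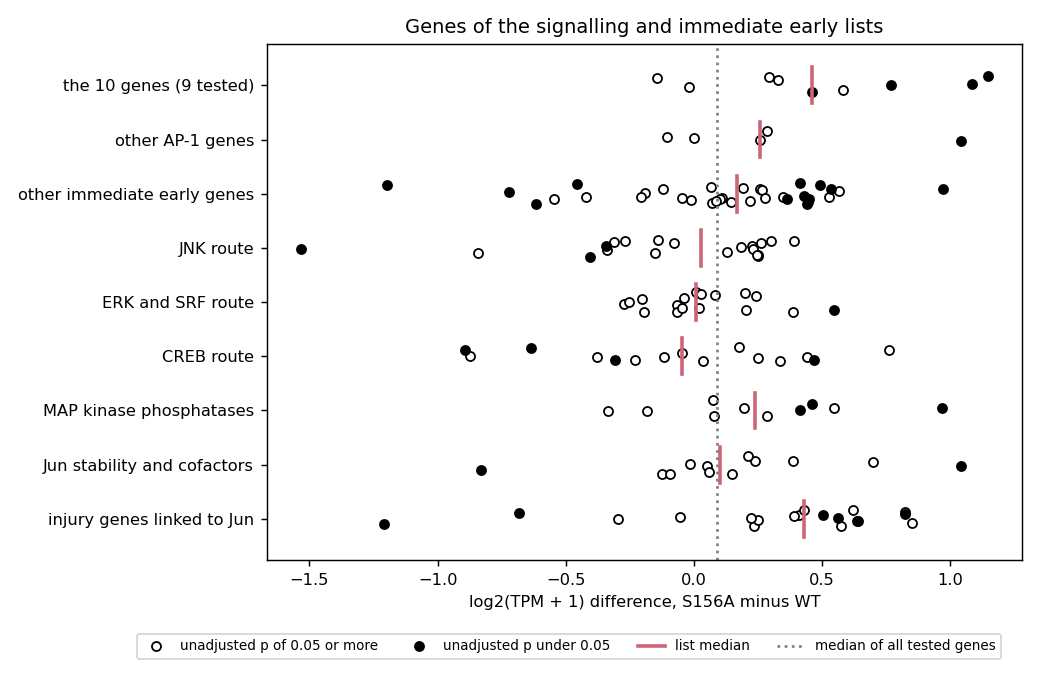
Difference in log2(TPM + 1), S156A minus WT, of every tested gene in 9 lists (points, spread vertically for sight). Filled points have an unadjusted p under 0.05, the red lines are list medians and the dotted line is the median of all tested genes, 0.09. Medians of the JNK, ERK and SRF, and CREB routes lie at 0.03, 0.01 and -0.05, and that of the 9 tested Jun, Fos and Egr genes, chosen with these values in view, at 0.46.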

How the data were processed

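The 6 libraries were grouped by the genotype and replicate number in their titles. The deposited FPKM values, the deposited TPM values (a signal scaled to length and library) and the deposited coverage, an unnormalized mean read depth per base, came from StringTie gene abundance tables, per the file headers. The submitters' processing notes name Trim Galore 0.6.6, HISAT2 2.2.1, StringTie 2.1.5 and, as build, the human hg38, although identifiers in every table are those of mouse genes. Of 38190 genes matched by symbol, 3.17% started within 1000 bases of their GRCm38 position, so file coordinates are probably GRCm39 and were not mixed with the RefSeq promoter sequences (GRCm38.p6). No source used here gives the strand setting.

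Annotated rows were kept, and rows sharing an identifier were summed, which for Junb applied in 4 libraries. Assembled loci were not tested. Differences were fitted on log2(TPM + 1) for the 18893 genes averaging 1 TPM or more, by limma 3.58.1 in R 4.3.3 (eBayes with trend, two-sided, no covariate) and adjusted by Benjamini-Hochberg. This scale understates changes of low genes. The limma step was tested on simulated data. Depth was estimated as the commonest ratio of coverage to FPKM. No counts are held, so no counting intervals are given.

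The genes, lists and tests were chosen with earlier results of these data known. By the naming rule the 10 genes, Acta1 and 5 genes most like Jun and Fos were named. Up to 3 genes per list with the smallest unadjusted p under 0.05 and groups that do not overlap were also named. For cell-type lists only sums and counts are given, apart from the microglial markers with overlapping groups and the astrocyte list gene Apoe. Deviations from the genotype mean had an r of -0.55, 0.19 and -0.41 between same-numbered libraries. The muscle-rich libraries, WT replicate 3 and S156A replicate 1, deviated together (r of 0.65), and deviations within 3 libraries sum to 0. The check therefore cannot show whether the numbers are pairs. They were not used as pairs in the fit reported, and a fit with them as a block is given below. A planned comparison of protein sequences was not made.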

Additional observations from a re-analysis of the deposited data

How the results depend on the processing

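The difference of Jun stayed between 1.05 and 1.29 on the log2 scale in all 22 alternatives, and its adjusted p stayed under 0.05 in 11. It passed with FPKM, both pseudocounts, a mean TPM of at least 5, trimmed mean and quantile scaling, robust estimation, library weights, the muscle covariate, rescaling and without WT replicate 3. It did not pass without a filter or without a trend (1.15 in each, adjusted p = 0.134 and 0.061), with the Y-linked covariate (1.20, 0.095), without the 2 libraries highest in Acta1 (1.29, 0.067) or without the 3 with Acta1 over 100 TPM (1.24, 0.195). With 1 library left out the difference ran from 1.08 to 1.22 (adjusted p = 0.044 to 0.226). With the replicate number as a block it was 1.15 (adjusted p = 0.257), and no gene passed. The cause of these lost calls was not tested.

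The adjusted p of the 8 other tested genes stayed above 0.05 in every alternative that kept them (a mean TPM of at least 5 drops Fos, Atf3 and Egr3), and Junb, Jund, Fosl2, Atf3, Egr1 and Ier2 kept a positive and Egr3 a negative sign. The share of tested genes called higher and lower was 0.0847% and 0.0741% in the fit reported (16 and 14 genes), 0% and 0% with no filter (2001 and 1363 genes at an unadjusted p under 0.05), 0.0371% and 0.0476% without a trend, 0.672% and 0.963% with library weights, 0.826% and 1.3% with the muscle covariate, and 0.00529% and 0% with the Y-linked covariate (1365 and 812 genes at an unadjusted p under 0.05). It was 0% and 0% without the 2 libraries highest in Acta1 (1987 and 1154) and with the replicate block (1062 and 818), and 0.0212% and 0% without the 3 over 100 TPM (1217 and 753). Calls lower were 0.127% with FPKM, 0.307% with the trimmed mean, 0.191% with quantile normalization and 0.116% with robust estimation. Leaving out 1 library gave 0% to 0.185% in each direction, the highest without WT replicate 3, and at most 0.00529% without any other. The trimmed mean moved the median of all genes from 0.09 to 0.00, with Jun at 1.05. Of 131 genes of the pathway lists 0 were called in the fit reported (33 at an unadjusted p under 0.05), 1 with the trimmed mean, and 5 with library weights and 5 with the muscle covariate. With 1 library left out 0 were called. The share of Jun among the Jun genes, given as a description, differed by 5.65 percentage points, and by 4.80 to 6.36 with 1 library left out. Depth leaves Fosb unmeasured between genotypes, and Atf3 and Fos with few reads.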
